A study of Homo sapiens with 4 samples.

Results

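The genes described here encode the EGFR/ERBB receptor tyrosine kinases and the growth factors that activate them. They are 10 genes of the 20372 in the deposited count table, taken by symbol: the receptors EGFR, ERBB2, ERBB3 and ERBB4 and the ligands HBEGF, AREG, EREG, TGFA, BTC and NRG1. Transcripts were counted by RNA-seq in TPC1, an established line from a human papillary thyroid cancer with a CCDC6-RET fusion, grown with serum. All 4 libraries came from cells exposed to BGJ398, an inhibitor of FGF receptor kinases, 2 after 6 h (6 h replicates 1 and 2) and 2 after 24 h (24 h replicates 1 and 2). The dose is uncertain, since the labels state 100 micromolar and the methods name nanomolar for that number. No untreated or vehicle library was analysed here, so each comparison is of 24 h with 6 h of inhibitor and not of treated with untreated cells. The line is 1 culture model without the other cells of a tumor, and nothing states that replicates came from separate cultures, so a p-value covers the variation among these 4 libraries, which may be technical. In a bulk culture, fewer cells that carry a transcript and less of it per cell cannot be told apart.

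ERBB receptors sit at the cell surface and pair with one another when a ligand binds, after which their kinase domains phosphorylate each other and recruit adaptors that feed the RAS-ERK and PI3K-AKT pathways. EGFR binds HBEGF, AREG, EREG, TGFA and BTC, some of which also bind ERBB4. Neuregulins such as NRG1 bind ERBB3 and ERBB4. ERBB2 has no known ligand of its own and acts as the preferred partner, and ERBB3 has a nearly inactive kinase and signals through its partners. Ligands are made as membrane-anchored precursors that proteases of the ADAM family release. In epithelial tumors treated with inhibitors of other kinases, signaling through these receptors is a known alternative way to keep ERK active. In TPC1 cells, the study reported that BGJ398 alone did not significantly inhibit ERK or AKT signaling. The comparison here bears on whether transcripts of these receptors and ligands differed between early and late exposure. Time in culture and length of exposure cannot be told apart in it.

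Libraries held 24958447 to 26325512 counts. Levels are given as CPM, the count of a gene relative to the library total scaled to 1e+06 with TMM factors, and fold changes as log2 of 24 h over 6 h with the standard error (SE) of the edgeR quasi-likelihood fit. The share of mitochondrial-encoded genes was 1.09% to 1.40% in the 6 h libraries and 1.68% to 2.98% in the 24 h libraries. With these genes left out of the totals, EGFR was at -0.64 and ERBB2 at -0.36 on the log2 scale, as with them. Of 12 thyroid lineage markers 6 reached 1 CPM in every library, led by the thyroid transcription factor PAX8 at 957 to 1069 CPM. NKX2-1 and TSHR were at 0 counts in all 4, and the epithelial markers CDH1 (0 to 1 counts) and EPCAM (2 to 8 counts) were close to 0 although KRT8 and KRT18 were present. The leukocyte marker PTPRC had 2 to 6 counts, and CD68 was the 1 of 5 leukocyte markers above 1 CPM in every library, at 166.4 to 236.5 CPM. Of the fibroblast markers 2 of 7 passed that level, with summed levels of 12.6 and 13.2 CPM at 24 h and 13.6 and 16.0 CPM at 6 h, and COL1A2, COL3A1 and DCN were at 0. None of the 3 endothelial markers in the table passed it, with summed levels of 0.602 and 0.634 CPM at 24 h and 0.204 and 0.408 CPM at 6 h.

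Of the 10 genes, EGFR and ERBB2 were lower at 24 h than at 6 h in every library, as were the abundant ligands EREG and HBEGF, whereas TGFA and BTC were higher. These 6 of the 7 tested members did not overlap between the times, against 62.8% of all tested genes (31.5% lower and 31.3% higher), so that most tested genes likewise had no overlap. The differences were small, from a log2 fold change of -0.64 for EGFR to 0.28 for BTC, which was 0.07 after removal of a trend on transcript length and GC content. In the edgeR test, with Benjamini-Hochberg adjustment over all genes, none of the 7 genes that passed the low-count filter was called, against 0 of 12549 genes (0.0%), while 2 of the 7 and 3061 of 12549 genes (24.4%) had an unadjusted p under 0.05 (10.5% of genes lower with such a p, as both members were). DESeq2 called EGFR alone, lower, among the 5 members to which it gave an adjusted p, where it called 8.23% of genes in either direction and 2.65% of genes as lower. ERBB3, ERBB4 and AREG did not pass the filter.

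EGFR, the receptor for most of these ligands (ENSG00000146648, hg19 chromosome 7, 55086714 to 55324313), was at 65.4 and 58.4 CPM in 24 h replicates 1 and 2 and at 117 and 75.5 CPM in 6 h replicates 1 and 2. The times did not overlap, but 6 h replicate 1 stood well above the other 3 libraries. The mean was 61.9 ± 4.98 CPM for the late pair and 96.4 ± 29.6 CPM for the early pair (SD, n = 2). This gave a log2 fold change of -0.64 ± 0.19 (SE, 95% interval -1.08 to -0.19), and the adjusted p was 0.173 in edgeR and 0.022 in DESeq2. Of all tested genes, 1.0% had a lower or equal fold change. The pair of 6 h libraries differed by a factor of 1.55, with an interval of 1.47 to 1.64 (95%, exact binomial) that covers counting error only, and the pair of 24 h libraries by 1.12 (1.04 to 1.2). The replicate gap at 6 h was therefore beyond counting error and close in size to the gap between times.

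The size of the EGFR difference rested on 6 h replicate 1. In edgeR, leaving that library out gave -0.29 (adjusted p = 0.849, where 0.00782% of genes were called), and leaving out 6 h replicate 2 gave -0.92 (adjusted p = 5.59e-05, 6.95% of genes called). The fit that lacked 24 h replicate 1 gave -0.73 (adjusted p = 0.00937, 24.5% of genes called), and the one that lacked 24 h replicate 2 gave -0.56 (adjusted p = 0.566, 0.00788% of genes called). DESeq2 kept its call when 6 h replicate 2 was left out (adjusted p = 0.000934, 4.27% of genes called). It lost the call when 24 h replicate 1 (0.3365, 16.7% of genes called), 24 h replicate 2 (0.9999, 0.0064% called) or 6 h replicate 1 (0.9988, 0.0% called) was left out, each value in brackets being the adjusted p. EGFR has a long transcript, 9905 bases, longer than in 95.3% of tested genes, and long genes were lower at 24 h across the table (Spearman -0.31 between fold change and length over genes, which are not independent replicates). With a trend on length and GC content removed, the EGFR value was -0.44 and was not called by edgeR (adjusted p = 0.259).

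**Figure D1:**
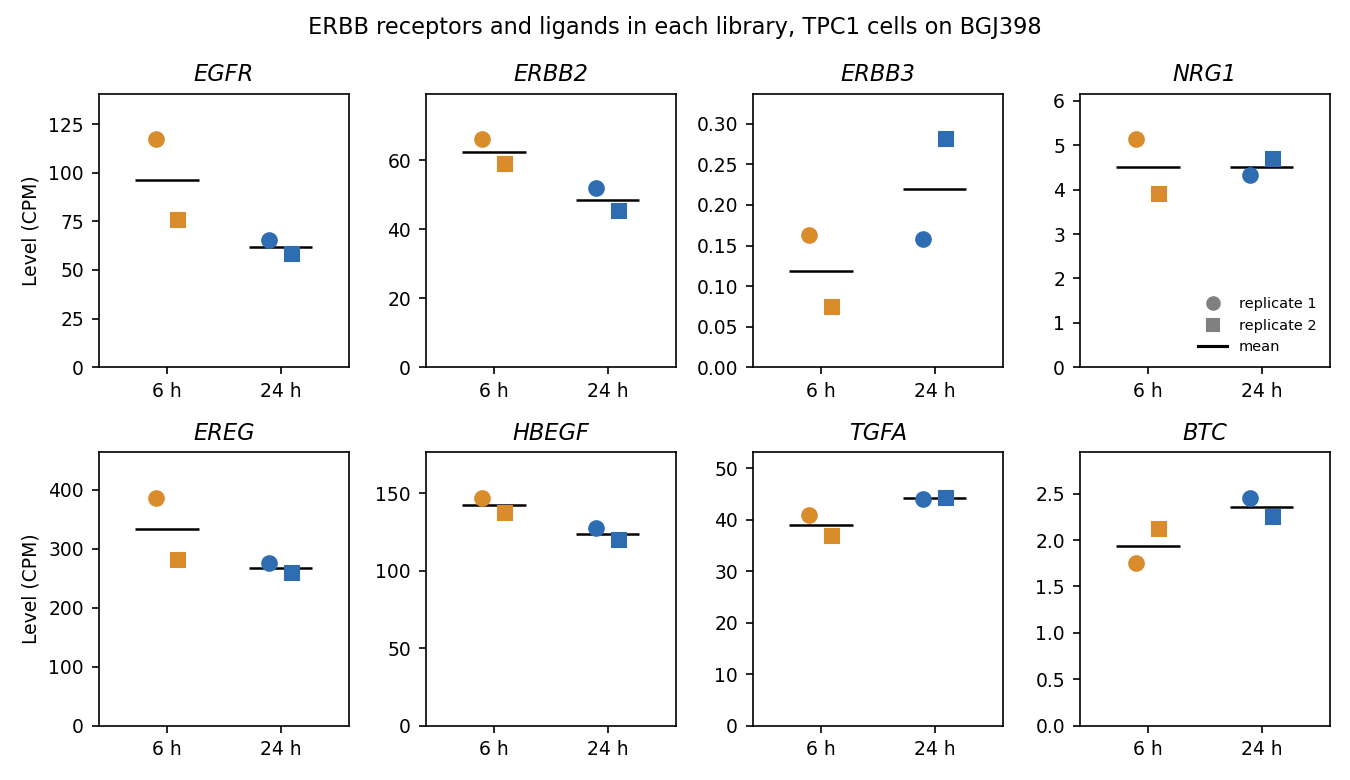
Level in CPM (vertical axis, from 0) of each member with counts, in the 2 libraries at 6 h and the 2 at 24 h. Circles are replicate 1, squares replicate 2 and black lines the mean of the pair. EGFR and EREG stand highest in 6 h replicate 1, at 117 and 387 CPM. AREG and ERBB4, at 0 counts in all 4 libraries, are not drawn.

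ERBB2, the partner receptor without a ligand (ENSG00000141736, chromosome 17, 37844167 to 37886679), was at 51.9 and 45.2 CPM at 24 h and 66.1 and 58.9 CPM at 6 h. The times did not overlap. Replicate 1 exceeded replicate 2 by a factor of 1.12 at 6 h (1.05 to 1.2, counting error only) and of 1.15 at 24 h (1.06 to 1.24). Both replicate gaps were thus beyond counting error. The log2 difference of -0.36 ± 0.11 (SE) was called by neither tool (adjusted p = 0.173 in edgeR, 0.087 in DESeq2). It was called by edgeR without 24 h replicate 1 (-0.47, adjusted p = 0.0149) and was -0.13 after removal of the trend on length and GC. In the count table the span of ERBB2 overlaps those of MIEN1 (3274 counts over the 4 libraries) and PGAP3 (1099 counts), against 5644 counts for ERBB2 itself. No source used here gives the strand setting of the counting, so reads of overlapping genes may be shared.

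Set against ERBB2 within each library, which needs no scaling, EGFR had 1.26 and 1.29 times as many counts at 24 h and 1.77 and 1.28 times as many at 6 h. By this ratio the times overlapped, and 6 h replicate 1 was the library that differed. The receptor for neuregulins with a weak kinase, ERBB3, had 4 and 7 counts in the late pair and 4 and 2 in the early pair, which is close to the detection floor of 3 counts (0.111 to 0.122 CPM). Its times overlapped, and a difference was not detectable at this depth. ERBB4, the other neuregulin receptor, had 0 counts in all 4 libraries, which allows up to 3 counts per library. Both neuregulin receptors were thus at or near 0 in these cells, and the receptors with counts above the filter were EGFR and ERBB2.

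EREG, epiregulin, had the highest counts of the member ligands (ENSG00000124882, chromosome 4, 75230860 to 75254468), where the level of AREG is uncertain as described below. It was at 276 and 259 CPM at 24 h and 387 and 282 CPM at 6 h. The times did not overlap, though 24 h replicate 1 and 6 h replicate 2 lay close to each other and 6 h replicate 1 stood apart. Within 6 h, replicate 1 exceeded replicate 2 by a factor of 1.37 (1.33 to 1.42, counting error only). Its log2 fold change of -0.32 ± 0.16 (SE) was not called (adjusted p = 0.239 in edgeR, 0.145 in DESeq2), and it was -0.07 when 6 h replicate 1 was left out and -0.53 when 6 h replicate 2 was. In contrast to the receptors, the value grew in size to -0.49 once the length and GC trend was removed (adjusted p = 0.259, edgeR).

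HBEGF, heparin-binding EGF-like growth factor (ENSG00000113070, chromosome 5, 139712428 to 139726216), was at 128 and 120 CPM at 24 h and 147 and 137 CPM at 6 h. The times did not overlap, and replicate 1 exceeded replicate 2 by a factor of 1.07 at 6 h and of 1.06 at 24 h. The log2 difference of -0.20 ± 0.10 (SE, 95% interval -0.43 to 0.03) was not called (adjusted p = 0.246 in edgeR, 0.2699 in DESeq2). It was -0.15 to -0.25 without each library, and -0.20 with the length and GC trend removed.

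TGFA, transforming growth factor alpha (ENSG00000163235, chromosome 2, 70674412 to 70781325), went the other way. It was at 44.03 and 44.26 CPM at 24 h and 40.9 and 36.8 CPM at 6 h, so that both late libraries lay above both early ones. A log2 fold change of 0.18 ± 0.10 (SE, 95% interval -0.06 to 0.43) was not called (adjusted p = 0.2925 in edgeR, 0.417 in DESeq2). It was positive without each library, from 0.11 to 0.26. Relative to EGFR, TGFA had 0.673 and 0.758 times as many counts at 24 h and 0.349 and 0.487 times as many at 6 h. These ratios did not overlap between the times, and no test was made of them.

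BTC, betacellulin, a ligand of both EGFR and ERBB4 (ENSG00000174808, chromosome 4, 75669969 to 75719896), was low, with 62 and 56 counts in the late pair and 43 and 57 in the early pair. In CPM the times did not overlap (2.46 and 2.25 against 1.75 and 2.11). Its log2 fold change of 0.28 ± 0.24 (SE) had an interval of -0.27 to 0.83 (95%), so a change of that size was not detectable at this depth, and it was 0.07 after removal of the trend on length and GC. NRG1, neuregulin 1 (ENSG00000157168, chromosome 8, 31496902 to 32622548), was at 4.32 and 4.70 CPM at 24 h and 5.14 and 3.90 CPM at 6 h. Its early libraries enclosed the late ones, and the log2 fold change was 0.00 ± 0.20 (SE) with an interval of -0.47 to 0.47 (95%). It turned from 0.21 without 6 h replicate 1 to -0.19 without 6 h replicate 2.

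AREG, amphiregulin, had 0 counts in all 4 libraries. In the hg19 table a near-identical copy of the gene, AREGB, is listed nearby (75480629 to 75490486, against 75310851 to 75320726 for AREG) with 2 and 1 counts in the late pair and 1 and 0 in the early pair. Reads that match both copies alike may not have been counted for either, so the value of AREG is uncertain and not a measure of absence. Both lie on chromosome 4 in a row of ligand genes. In order along the chromosome, EPGN had 16 and 16 counts in the late pair and 13 and 7 in the early pair, EREG had 6459 to 9488 counts over the 4 libraries, AREG and AREGB had 0 to 2, and BTC had 43 to 62. Of the ligand genes in this row only EREG had a high count, while the level of AREG remained unknown.

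**Figure D2:**
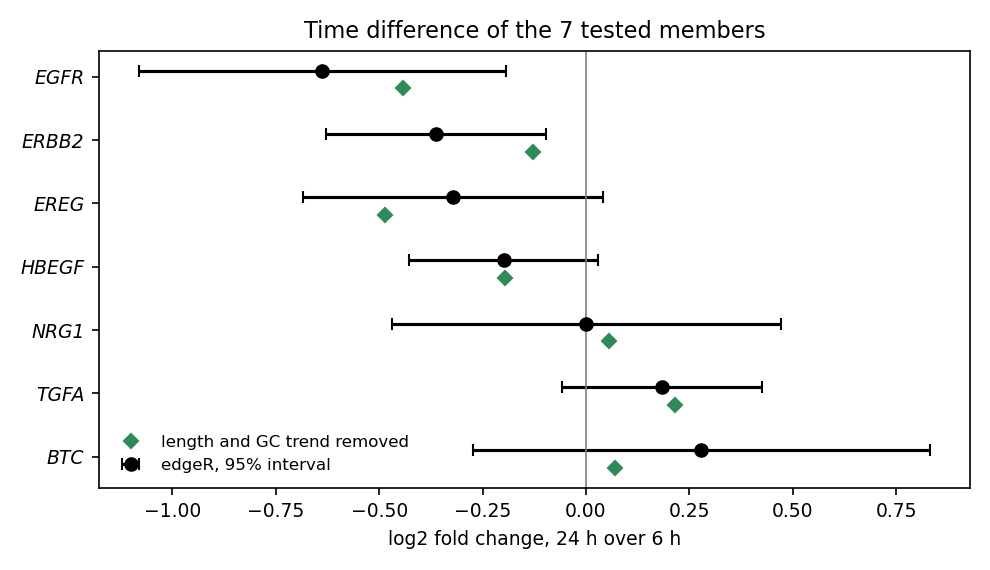
Log2 fold change of 24 h over 6 h for the 7 members that passed the low-count filter. Black points are the edgeR estimates with 95% intervals, and green diamonds the values after removal of a trend on transcript length and GC content. The intervals of EGFR (-1.08 to -0.19) and ERBB2 (-0.63 to -0.10) lie below 0, without adjustment over genes, and the other 5 include 0.

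Promoters are shown for both receptors above the filter and the 3 ligands with the highest counted levels. Of these genes, EGFR, ERBB2, EREG and HBEGF were lower and TGFA higher at 24 h, and edgeR called none of them. Each promoter is the stretch of 250 bases before the RefSeq gene start (GRCh38.p14, not the hg19 build of the counts), 5′ to 3′ on the strand of the gene. EGFR and TGFA have 2 RefSeq promoters each, and that nearest the start of the GENCODE v44 canonical transcript is shown. ERBB2 has 1 RefSeq promoter, whose distance from the canonical start was not examined. As the span of ERBB2 overlaps those of PGAP3 and MIEN1, its window may hold sequence of another gene. RefSeq promoters matched 8 of the 10 genes, all but ERBB3 and NRG1. Capitals mark matches on either strand to the GC box GGGCGG, the TATA box TATAAA, the CCAAT box CCAAT, the AP-1 element TGANTCA, the cAMP response element TGACGTCA or the ETS site CCGGAAGT.
EGFR, chr7:55018767-55019016, plus strand: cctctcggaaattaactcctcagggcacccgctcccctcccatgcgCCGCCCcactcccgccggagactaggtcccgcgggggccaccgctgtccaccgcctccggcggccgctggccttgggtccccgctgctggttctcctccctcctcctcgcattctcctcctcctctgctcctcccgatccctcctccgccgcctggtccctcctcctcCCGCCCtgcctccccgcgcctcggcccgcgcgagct
ERBB2, chr17:39687844-39688093, plus strand: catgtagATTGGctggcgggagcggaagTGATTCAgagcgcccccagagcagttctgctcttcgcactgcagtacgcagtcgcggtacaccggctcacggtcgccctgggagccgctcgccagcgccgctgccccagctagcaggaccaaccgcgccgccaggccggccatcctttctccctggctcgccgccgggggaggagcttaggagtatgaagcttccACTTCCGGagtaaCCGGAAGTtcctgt
EREG, chr4:74364895-74365144, plus strand: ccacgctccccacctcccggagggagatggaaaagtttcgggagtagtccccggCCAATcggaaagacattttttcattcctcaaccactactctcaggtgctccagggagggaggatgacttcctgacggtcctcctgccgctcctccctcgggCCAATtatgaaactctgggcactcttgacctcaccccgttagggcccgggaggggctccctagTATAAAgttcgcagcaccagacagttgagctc
HBEGF, chr5:140346604-140346853, minus strand: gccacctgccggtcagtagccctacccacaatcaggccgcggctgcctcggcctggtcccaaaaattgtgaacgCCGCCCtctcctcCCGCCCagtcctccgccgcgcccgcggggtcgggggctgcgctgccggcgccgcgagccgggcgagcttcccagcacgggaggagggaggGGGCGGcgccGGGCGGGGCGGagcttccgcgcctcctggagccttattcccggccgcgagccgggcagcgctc
TGFA, chr2:70553827-70554076, minus strand: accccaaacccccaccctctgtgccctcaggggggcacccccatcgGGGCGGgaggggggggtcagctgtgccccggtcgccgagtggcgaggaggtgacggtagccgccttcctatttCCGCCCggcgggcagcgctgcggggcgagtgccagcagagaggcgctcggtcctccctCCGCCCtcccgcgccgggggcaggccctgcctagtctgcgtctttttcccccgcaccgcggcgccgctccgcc

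EGFR held 2 GC boxes, TGFA 3 and HBEGF 5, of which the last 2 of HBEGF share a base, and none of these windows matched the TATA box. The share of G and C was 73.6% in EGFR, 75.6% in TGFA and 76.4% in HBEGF. The ERBB2 window held no GC box, in 65.6% of G and C. It held an AP-1 element, a CCAAT box and 2 ETS sites that start 27 and 14 bases before the RefSeq start. EREG also held no GC box, with a TATA box that starts 32 bases before the gene start and CCAAT boxes that start 196 and 95 bases before it, in 58.0% of G and C. Over 34943 RefSeq windows of the same length, 42.5% held a GC box, 10.8% a TATA box, 32% a CCAAT box, 6.59% an AP-1 element, 1.63% a cAMP response element and 3.39% an ETS site. No one of these motifs was found in all of the windows shown. GC boxes were in those of EGFR, HBEGF and TGFA, and a CCAAT box in those of ERBB2 and EREG. Whether a motif bears on the time difference was not tested. A match is a description of letters and not a bound site.

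Per length of transcript, in CPM per kilobase, the order of the members was EREG (56.2 to 83.8 over the 4 libraries), HBEGF (50.9 to 62.4), ERBB2 (9.93 to 14.5), TGFA (8.94 to 10.8), EGFR (5.90 to 11.8), BTC (0.661 to 0.926), NRG1 (0.325 to 0.429) and ERBB3 (0.0132 to 0.0501). Neighbours whose libraries overlapped were EREG and HBEGF, ERBB2 and TGFA, and TGFA and EGFR, and the others were apart in every library. Lengths are those of the GENCODE v44 canonical transcripts, and the isoform used in these cells was not measured. The ligand level per kilobase was summed over the 6 member ligands, with the uncertain AREG entered as 0. Of this sum, EREG made up 47.5% and 47.2% at 24 h and 53.3% and 47.2% at 6 h. HBEGF made up 43.0% and 42.7% against 39.7% and 45.0%. TGFA made up 8.51% and 9.06% at 24 h and 6.32% and 6.92% at 6 h. The share of EREG thus differed in 6 h replicate 1 only, whereas that of TGFA was higher in both late libraries.

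**Figure D3:**
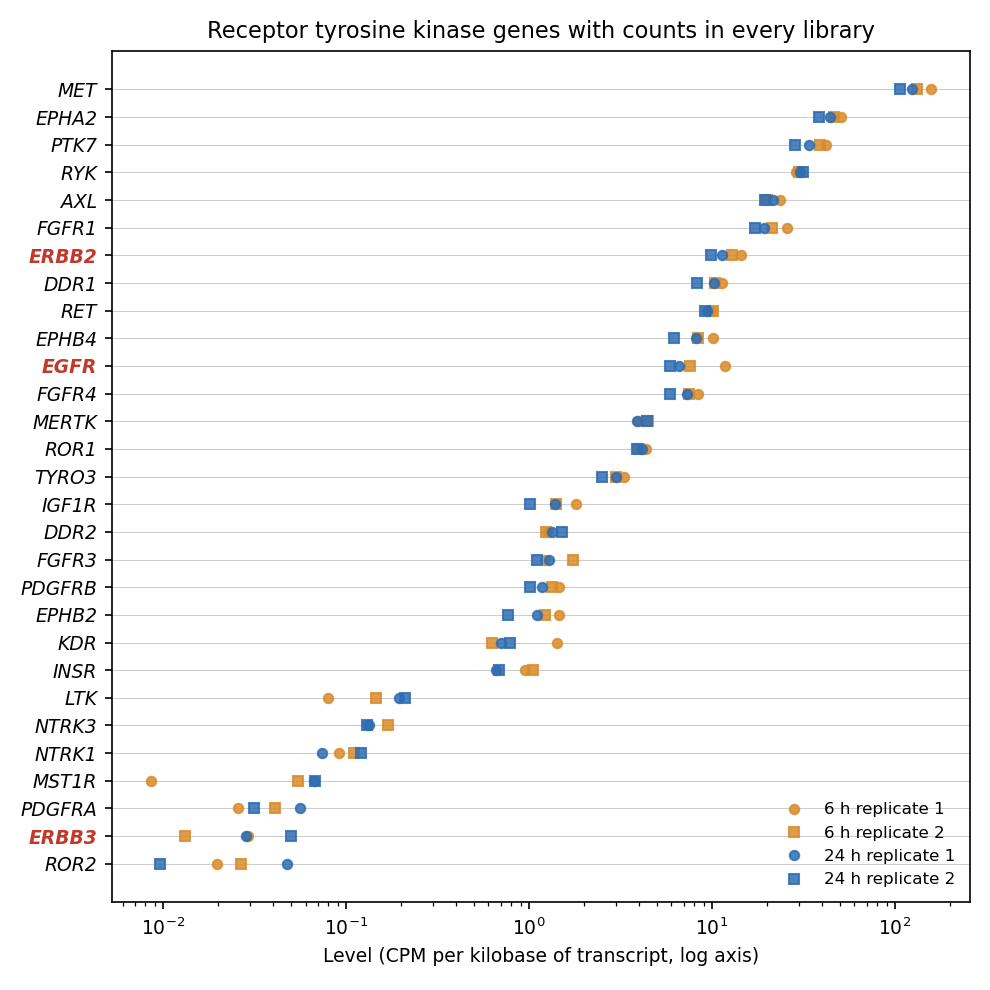
Level per kilobase of transcript (CPM per kilobase, log axis) of the receptor tyrosine kinase genes with counts in every library, in order of the mean. Orange is 6 h, blue 24 h, circles are replicate 1 and squares replicate 2, and the members are in bold red. ERBB2 is the 7th gene, at 9.93 to 14.5 CPM per kilobase, and EGFR, at 5.90 to 11.8, spans the levels of its neighbours. RET is drawn by its whole transcript length, although the cells carry a CCDC6-RET fusion.

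Among 36 receptor tyrosine kinase genes, ERBB2 ranked 7th by level per kilobase in each of the 4 libraries. EGFR ranked 12th and 11th at 24 h and 8th and 11th at 6 h, near RET (9.16 to 10.1 CPM per kilobase), EPHB4 (6.21 to 10.1) and FGFR4 (5.87 to 8.41). The RET value uses the whole transcript length of 5617 bases, although these cells carry a CCDC6-RET fusion. The RET level per kilobase, and the ranks beside it, are therefore uncertain. MET, the receptor for hepatocyte growth factor, was highest at 106 to 157, and FGFR1, a target of BGJ398, was at 17.1 to 25.6, above both ERBB receptors in every library. Of the 22 other receptor kinase genes that were tested, 19 were lower at 24 h, against 50.0% of all tested genes. The median of the 22 was -0.25 on the log2 scale, against -0.50 for EGFR and ERBB2 and 0.00 over all tested genes. These medians, and those of the lists below, are without removal of the trend on length and GC content. Fold change fell with GC content too (Spearman -0.34 over genes). With the trend removed, EGFR was at -0.44 and ERBB2 at -0.13. Before that removal, EGFR and ERBB2 were thus lower beside most receptor kinases. Examples are INSR (-0.56 ± 0.15), EPHB2 (-0.53 ± 0.19), FGFR1 (-0.37 ± 0.12) and PTK7 (-0.37 ± 0.12), none of them called by edgeR over all genes, and DESeq2 called 0 of the 11 to which it gave an adjusted p, against 8.23% of all genes.

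Among genes with a mean of at least 5 CPM, the 5 whose profile over the 4 libraries was closest to that of EGFR were SGPP2, LIPG, FBN1, PPAP2B and MYH9. Closeness was the Euclidean distance between log2 CPM values centred on each gene, from 0.036 for SGPP2 to 0.087 for MYH9, out of 10357 genes. By this choice all 5 were, like EGFR, highest in 6 h replicate 1, for example LIPG, an endothelial lipase, at 56.3 and 51.2 CPM at 24 h and 103 and 63.5 CPM at 6 h. With 4 points the likeness is a description of these libraries.

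**Figure D4:**
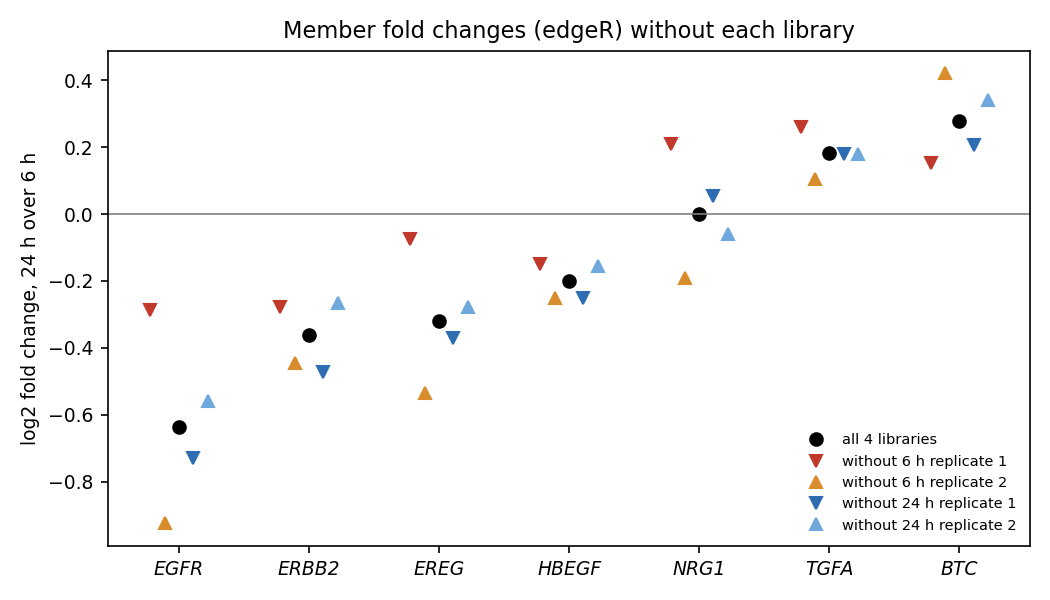
Log2 fold change of 24 h over 6 h for the 7 tested members by edgeR with all 4 libraries (black) and without each library in turn. EGFR ranges from -0.92 to -0.29 and EREG from -0.53 to -0.07, with the values nearest 0 without 6 h replicate 1. NRG1 lies on both sides of 0.

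The ERBB ligands that are not members were low or flat. NRG2, a neuregulin, was at 29.1 and 28.5 CPM at 24 h and 27.3 and 34.0 CPM at 6 h (log2 fold change -0.09 ± 0.13, SE). EGF itself was at 8.05 and 8.88 CPM at 24 h and 8.11 and 8.94 CPM at 6 h, with a log2 fold change of -0.01 ± 0.15. NRG2 and EGF overlapped between the times. NRG4 was under 1 CPM in every library, and NRG3 had 1 count in all 4 together.

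Genes for release of the ligands include ADAM proteases and the iRhom proteins that carry ADAM17 to the surface. Of the 12 tested, 10 were lower at 24 h, against 50.0% of all tested genes, with a median log2 fold change of -0.23. None was called by edgeR (0.0% of all genes), and none by DESeq2 (8.23% of all genes) among the 10 to which it gave an adjusted p. ADAM12 had a value of -0.34 ± 0.14, ADAM9 of -0.29 ± 0.13, FURIN, which cleaves the ADAM precursors, of -0.28 ± 0.13, and RHBDF2, the iRhom2 gene, of -0.25 ± 0.12. ADAM17 itself, the main sheddase of several of these ligands, had a value of -0.07 ± 0.10 and RHBDF1, the iRhom1 gene, one of 0.13 ± 0.12, and both overlapped between the times.

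Genes that curb the receptors or send them to degradation had a median of -0.06, with 11 of 15 tested lower (50.0% of all tested genes). EdgeR called 0 of these genes (0.0% of all genes) and DESeq2 0 of 12 (8.23% of all genes). SOCS4 was higher at 24 h (0.35 ± 0.11), at 63.6 and 74.9 CPM against 52.8 and 55.8 CPM, and CBL, the ubiquitin ligase that marks EGFR for breakdown, was lower (-0.29 ± 0.12). PTPN1, a phosphatase that acts on receptor kinases, had a value of -0.32 ± 0.11 and the adaptor gene SH3KBP1 one of -0.18 ± 0.11. Genes of receptor endocytosis and sorting went both ways, with 12 of 18 lower (50.0% of all tested genes) and a median of -0.12. The endocytic genes EPS15L1 (-0.39 ± 0.12), EPN1 (-0.38 ± 0.13) and AP2A1 (-0.34 ± 0.11) were lower, and TSG101 of the endosomal sorting machinery was higher (0.35 ± 0.13). None of the 18 was called by either tool, at the same shares over all genes.

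Adaptors and effectors of the receptors were lower in 23 of 27 tested genes (50.0% of all tested genes), with a median of -0.21. EdgeR called 0 of them and DESeq2 2 of 21, near the 8.23% of all genes that DESeq2 called. NCK1, an adaptor that links phosphorylated receptors to the actin cytoskeleton, was at 59.3 and 76.2 CPM at 24 h and 47.4 and 49.7 CPM at 6 h (0.48 ± 0.13, DESeq2 adjusted p = 0.0391). VAV2, a signaling protein that EGFR phosphorylates, was at 63.2 and 49.2 CPM against 86.2 and 71.4 CPM (-0.49 ± 0.15, DESeq2 adjusted p = 0.0404). Neither gene overlapped between the times. STAT3 (-0.38 ± 0.13) and the PI3K regulatory subunit PIK3R1 (-0.42 ± 0.14) were not called by either tool. Of the 27 tested genes 16 were lower and 3 higher without overlap between the times, where 31.5% of all tested genes were lower and 31.3% higher without overlap.

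**Figure D5:**
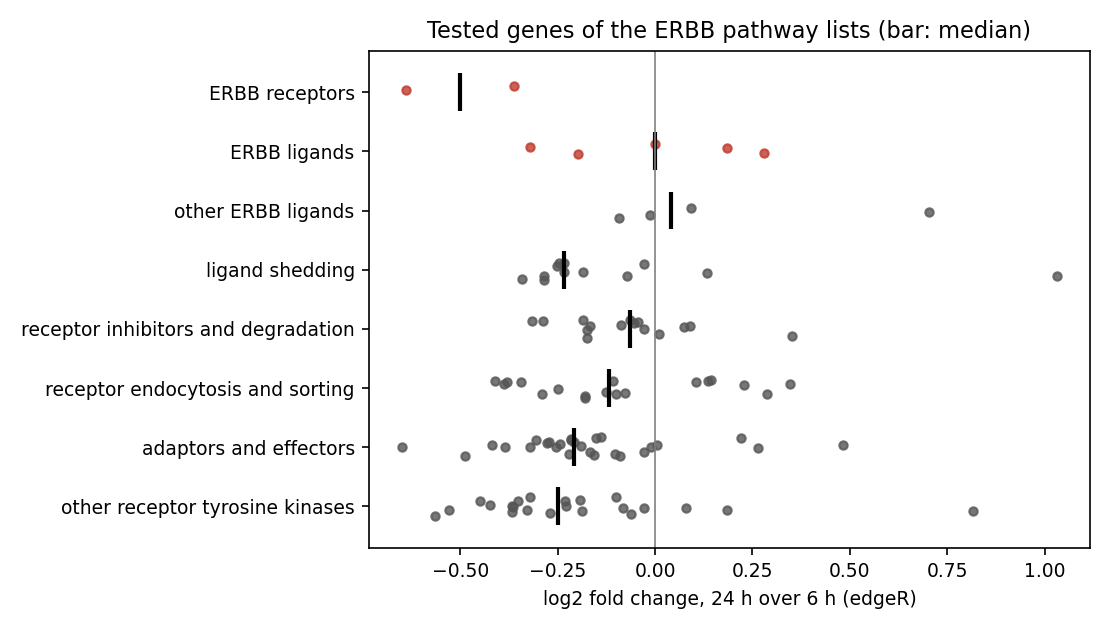
Log2 fold change of 24 h over 6 h (edgeR) of each tested gene in the lists of the ERBB pathway, with members in red and a black bar at the median of each list. Medians run from -0.50 for the receptors EGFR and ERBB2 to 0.04 for the other ERBB ligands, against 0.00 over all tested genes. The values are without removal of the trend on length and GC content.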

How the data were processed

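RNA was purified from TPC1 cells with a column kit and made into Illumina TruSeq libraries. The authors deposited whole-number read counts per gene with hg19 coordinates, without normalization, and the submitters' processing notes name STAR 2.3, hg19 and DESeq2. Labels (single-end) and methods (paired-end, a later STAR) differ, also in the kit, which the methods call stranded. No source used here names the counter, its strand setting or the annotation. Symbols turned into dates numbered 29.

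Counts were tested with edgeR 4.0.16 (R 4.3.3): filterByExpr, TMM factors, a quasi-likelihood test on time, and Benjamini-Hochberg adjustment over 12549 genes at 0.05. DESeq2 1.42.0, with filtering set for 0.05, gave 7410 genes an adjusted p. The alternatives were other factors, filters and library totals, left-out libraries, a replicate block, and removal of a length and GC trend (splines with 3 degrees of freedom per library, GENCODE v44 canonical transcripts, 98.7% of tested genes matched). The tests were tried on simulated data. The libraries of a time were not copies of each other (chi-square over its degrees of freedom 15.8 for the 6 h pair and 31.3 for the 24 h pair). Libraries of different times were not compared in this way. Members and lists were chosen with earlier results of these data known, so no list was tested. All members are named, with up to 4 genes of the smallest p per other list, plus the 5 genes nearest to EGFR; EPGN, NRG3, AREGB, MIEN1, PGAP3, ADAM17, RHBDF1, MET, RET, EPHB4, FGFR4 and the markers PAX8, NKX2-1, TSHR, CDH1, EPCAM, PTPRC, COL1A2, COL3A1 and DCN were named after their values were seen.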

Additional observations from a re-analysis of the deposited data

How the results depend on the processing

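With DESeq2-style factors, with no filter, with a mean of at least 10 CPM, after the trend on length and GC was removed and with mitochondrial-encoded genes left out, edgeR called 0 genes and 0 members. DESeq2 called 610 genes and 1 member (EGFR, -0.65, adjusted p = 0.022). Without each library edgeR called 1 to 3126 genes and 0 to 2 members, and DESeq2 0 to 1471 genes (133 without 6 h replicate 2) and 0 to 1 members. DESeq2 without each library was chosen after seeing the data. Over both tools, values without each library ran from -0.93 to -0.29 for EGFR (-0.92 to -0.29 by edgeR), -0.48 to -0.27 for ERBB2, -0.54 to -0.07 for EREG, -0.26 to -0.15 for HBEGF, 0.11 to 0.26 for TGFA, 0.15 to 0.42 for BTC and -0.19 to 0.21 for NRG1 (-0.072 to 0.21 by DESeq2). The NRG1 sign also turned with no filter (-0.0054). The median of the tested members, -0.20, ran from -0.26 to -0.07 (-0.25 to -0.07 by edgeR), with the values nearest 0 without 6 h replicate 1 (-0.075 by edgeR and -0.077 by DESeq2). The cause was not tested.

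With the replicate block edgeR called 4565 genes (36.4%) and 4 members: EGFR (-0.61, adjusted p = 0.000623), ERBB2 (-0.36, adjusted p = 0.00193), EREG (-0.30, adjusted p = 0.016) and HBEGF (-0.20, adjusted p = 0.0298). The block together with removal of the length and GC trend called 2572 genes (20.5%) and 3 members: EGFR (-0.43, adjusted p = 0.00472), EREG (-0.47, adjusted p = 0.00105) and HBEGF (-0.20, adjusted p = 0.0301). Same-numbered libraries deviated together (correlation 0.43 across genes). Across genes, the difference of replicate 2 from replicate 1 also went with the difference of 24 h from 6 h (correlation 0.67). EGFR, ERBB2, EREG and HBEGF were lower in replicate 2 at both times, whereas TGFA, BTC and NRG1 changed direction between the times. The cause was not tested. No label says what a replicate number stands for, and libraries were not treated as paired.

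EGFR was 5th in level per kilobase among the members, 4th within 6 h replicate 1 and 3rd by CPM without a length. Depth limited ERBB3, with 2 to 7 counts per library, and BTC.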
